A study of Mus musculus with 6 samples.

Results

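The genes described are 10 transcription factor genes of the heart and of mesenchyme, measured in fibroblast-like cells of the mouse infarct scar. They are Gata4 and Gata6 of the GATA zinc finger family, Tbx20 and Tbx5 of the T-box family, Hand2 and Twist1 of the basic helix-loop-helix family, Mef2a and Mef2c of the MADS-box family, and the homeobox genes Nkx2-5 and Prrx1. They were chosen by name for what they are known to do, with earlier results of these data known, and they are 10 of the 42256 genes in the table. All 10 have a row in it.

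PDGFRa+ cells were sorted by FACS from scar tissue of collagenase-digested hearts, 7 days after a myocardial infarction, and total RNA was sequenced from 6 libraries. The 4 Htr2b_cKO libraries came from mice labelled Htr2bfl/flPostnMCM/+, in which Htr2b, a serotonin receptor gene, is floxed and 1 allele of Postn carries a tamoxifen-inducible Cre. The 2 control libraries came from Htr2bfl/fl mice, in which Htr2b is floxed and there is no Cre. All mice were of a mixed 129S2/C57Bl6 background, and all were fed chow with tamoxifen, begun 1 week ahead of the injury and kept up until the hearts were taken. Postn is switched on in activated fibroblasts, so cells of the sort that never expressed it keep Htr2b. Because the controls lack the Cre, loss of Htr2b and effects of the Cre or of the changed Postn allele cannot be told apart. The comparison asks whether losing Htr2b from scar myofibroblasts is accompanied by other levels of these regulators.

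In the embryo, Gata4, Nkx2-5, Tbx5, Hand2 and Mef2c act together in heart muscle precursors, binding near the same muscle genes and binding one another. Several of them are not limited to muscle. Fibroblasts of the heart express Gata4, Gata6, Tbx20, Tbx5 and Hand2, which sets them apart from fibroblasts of other organs, while Nkx2-5 marks the muscle lineage. Forced expression of Gata4, Mef2c and Tbx5, often with Hand2, can turn cultured mouse fibroblasts into cells that resemble heart muscle. Twist1 and Prrx1 belong to mesenchyme in general.

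The libraries held 28533427 to 37392496 estimated counts. Levels are given as CPM, a gene's count relative to the TMM-scaled total over the tested genes of its library, with the SD over the 4 Htr2b_cKO or the 2 control libraries. Each library was taken as 1 animal, as the series design speaks of animals. Htr2b itself had 0, 3, 29 and 4 counts in Htr2b_cKO libraries, against 13 and 7 in control libraries. These few counts, at most 0.876 CPM, do not show a loss of Htr2b in the group (log2 fold change -0.11, SE 1.18, edgeR adjusted p = 0.982). The library labelled Htr2b_cKO 3 lay above both controls, so there the targeted gene goes against its label. That library also had the lowest sum of 12 fibroblast markers, at 80514 CPM, and the highest sum of 11 macrophage markers, at 3992 CPM. Htr2b_cKO 4 was the only male library. The fibroblast markers were high in every library, with Pdgfra at 900 ± 204 CPM in Htr2b_cKO and 985 ± 357 CPM in control libraries. In bulk RNA, fewer cells of a type and less RNA per cell cannot be told apart.

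The letters before the transcription start are shown for 4 of the genes, because Tbx20, Mef2a and Mef2c had the smallest p-values of the 10 between genotypes, though none passed, and Hand2 is shown for contrast. Each line gives 250 bases upstream of a RefSeq start in build GRCm38.p6, written 5′ to 3′ in the direction of the gene. Capitals mark matches, on either strand, to a GATA motif (AGATAA, also with T first, G last or both), a T-box core (GGTGTG), a MEF2 motif (CTA and TAG with 4 bases of any kind between them), an NKX2 motif (TNAAGTG), a homeobox core (TAATTA) or a TATA box (TATAAA).
Tbx20, chr9:24774304-24774553, minus strand: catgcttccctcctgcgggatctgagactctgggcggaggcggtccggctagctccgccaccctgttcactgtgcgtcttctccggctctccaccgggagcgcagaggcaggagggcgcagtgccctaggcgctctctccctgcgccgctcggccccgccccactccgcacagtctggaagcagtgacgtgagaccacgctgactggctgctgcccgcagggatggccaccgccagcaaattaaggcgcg
Mef2a, chr7:67372859-67373108, minus strand: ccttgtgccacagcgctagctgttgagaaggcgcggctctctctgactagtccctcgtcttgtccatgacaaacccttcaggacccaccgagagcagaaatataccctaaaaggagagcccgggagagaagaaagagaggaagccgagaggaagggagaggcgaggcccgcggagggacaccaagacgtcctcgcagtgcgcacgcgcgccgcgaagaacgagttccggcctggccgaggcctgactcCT
Mef2c, chr13:83503784-83504033, plus strand, the first of 3 starts: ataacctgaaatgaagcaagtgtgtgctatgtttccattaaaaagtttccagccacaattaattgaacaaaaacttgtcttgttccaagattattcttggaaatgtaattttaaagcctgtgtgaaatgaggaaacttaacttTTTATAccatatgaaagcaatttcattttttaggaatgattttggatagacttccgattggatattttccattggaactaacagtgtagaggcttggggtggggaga
Hand2, chr8:57320733-57320982, plus strand: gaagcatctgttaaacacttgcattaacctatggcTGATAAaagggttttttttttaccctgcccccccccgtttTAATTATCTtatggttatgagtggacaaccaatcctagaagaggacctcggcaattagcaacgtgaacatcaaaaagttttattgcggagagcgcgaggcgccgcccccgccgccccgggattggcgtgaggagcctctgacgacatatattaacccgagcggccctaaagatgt

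These windows differ in base composition. GC content was 68.8% for Tbx20 with 22 CpG dinucleotides, 61.6% for Mef2a with 21, and 33.6% for the first Mef2c start with 1. The later Mef2c starts had 44.8% with 6 CpG and 49.6% with 4 CpG. Hand2 had 49.2% and 15 CpG. The median over 32851 mouse promoters of the same length was 52.4% and 6 CpG. Mef2a carries a MEF2 match, CTAAAAATAG, that begins 2 bases before the start and ends at transcribed base 8, so only its first letters stand in the line above. Of all promoters, 3.69% held such a match in the 300 bases from 250 before to 50 after the start. Mef2a also has a T-box core at transcribed bases 13 to 18, a motif found in 19.0% of promoters. Hand2 has 2 GATA matches, which begin 215 and 172 bases before the start, and a homeobox core at 175, which overlaps the second of them. GATA motifs were present in 29.8% of all promoters and the homeobox core in 5.29%. Of the listed motifs, the Mef2c window shown has a TATA box on the opposite strand, 107 bases before the start, a motif found in 13.6% of promoters. The window of the second Mef2c start has a T-box core, a homeobox core and a TATA box, and that of the third has no listed motif. For Tbx20 there was no match, which says only that these letters are not in this window. RefSeq promoters were matched for 7 of the 10 genes.

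No gene of the 10 passed the test between genotypes. Of the 9 that could be tested, edgeR called 0 at an adjusted p under 0.05, where 0.0189% of the 15840 genes tested were called. At an unadjusted p under 0.05 there were 3, Tbx20, Mef2a and Mef2c, all higher in Htr2b_cKO, where 6.60% of tested genes were higher at that level, and 0 were lower, where 2.99% were. DESeq2, which called 0.647% of all genes, and limma voom, which called 2 genes, also called 0 of the 9. With them 2 and 3 of the 9 were higher at an unadjusted p under 0.05. Over all genes 1035 and 989 were higher at that level, and 359 and 498 lower. In 4 genes, Tbx20, Tbx5, Mef2a and Mef2c, all Htr2b_cKO libraries lay above both controls, against 10.6% of tested genes, and in 0 they lay below both, against 8.98%. The median log2 fold change of the 9 was 0.27, with 8 above 0 and 1 below, and over all tested genes it was 0.00, with 50% above 0. Without Htr2b_cKO 3 and 4, the libraries that stand apart by Htr2b and by sex, 1 of the 9 genes (Mef2c) was higher at an unadjusted p under 0.05, where 5.85% of tested genes were.

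**Figure D1:**
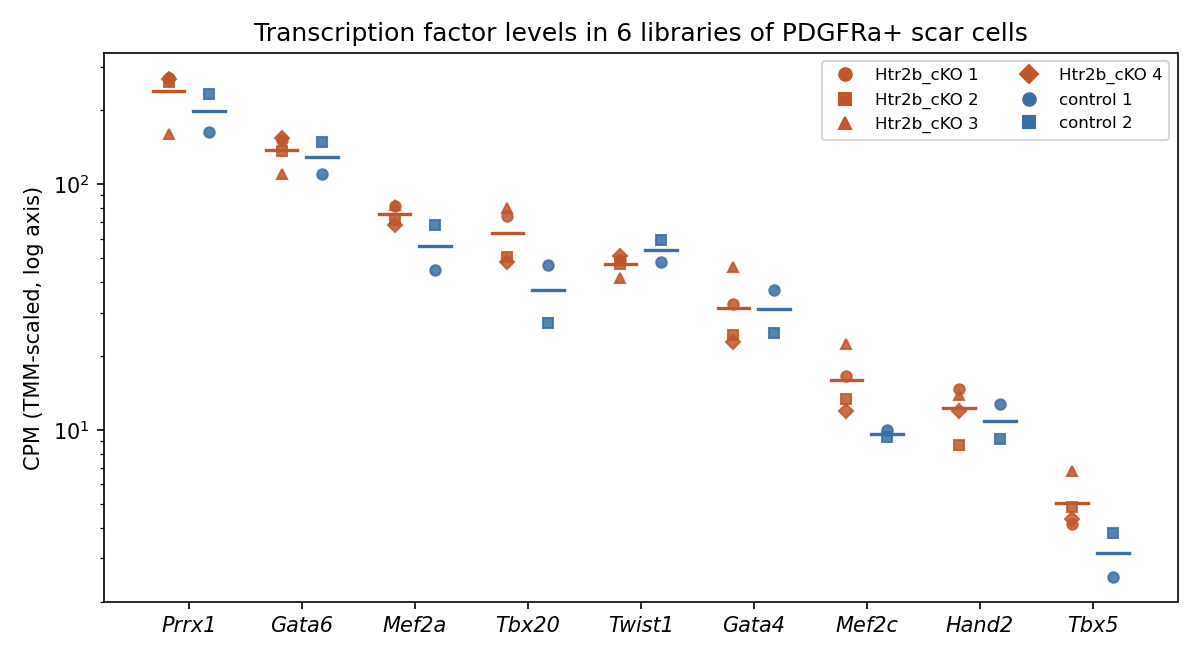
CPM of the 9 tested genes in every library, on a log axis; points are libraries, with Htr2b_cKO left of control for each gene, and short lines are group means. The 4 Htr2b_cKO libraries lie above both controls for Tbx20, Tbx5, Mef2a and Mef2c, and the groups overlap for the other 5 genes. Nkx2-5, at or below 0.242 CPM, is not drawn.

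GATA4 and GATA6 are zinc finger activators that bind the same core sequence and share work in heart and foregut development. Gata4 (ENSMUSG00000021944, chromosome 14 from 63198922 to 63271692) had 32.4, 24.2, 46.0 and 22.7 CPM in Htr2b_cKO libraries, against 37.0 and 24.8 CPM in control libraries. The highest and the lowest value were both in the Htr2b_cKO group, and the groups overlap over the whole control range. The means of 31.3 ± 10.7 CPM in Htr2b_cKO and 30.9 ± 8.58 CPM in control gave a log2 fold change of 0.02 (SE 0.31, edgeR adjusted p = 0.990). The estimate ran from -0.23 without control 2 to 0.33 without control 1, so neither direction is fixed.

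Gata6 (ENSMUSG00000005836, chromosome 18 from 11052064 to 11085635) was the more abundant of the pair per kilobase of exon. It had 151, 136, 110 and 154 CPM in Htr2b_cKO libraries, against 110 and 148 CPM in control libraries. Htr2b_cKO 3, where Gata4 was highest, had one of the lowest Gata6 levels. Between genotypes its log2 fold change came to 0.09 (SE 0.19, edgeR adjusted p = 0.902), or -0.10 without control 1. The log2 ratio of Gata4 to Gata6 within a library was -2.22, -2.49, -1.25 and -2.76 in Htr2b_cKO, against -1.58 and -2.57 in control libraries. Its means differed by -0.11, far less than the SDs of 0.66 and 0.70 (exact two-sided permutation p = 0.933).

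TBX20 is a T-box factor needed for growth and division of the heart tube, and TBX5 is the one whose reduced dose in people causes heart and limb malformations. Tbx20 (ENSMUSG00000031965, chromosome 9 from 24718138 to 24774303) had 74.1, 50.6, 80.1 and 48.0 CPM in Htr2b_cKO libraries, against 47.0 and 27.1 CPM in control libraries. Every Htr2b_cKO library was higher than both controls, but the gap between the lowest of them and the higher control was 0.960 CPM. The means were 63.2 ± 16.3 CPM in Htr2b_cKO and 37.0 ± 14.1 CPM in control. In the edgeR fit this was the largest fold change of the 9 genes tested, 0.77 on the log2 scale (SE 0.30, edgeR unadjusted p = 0.0358, adjusted p = 0.485). The size rested on the controls, with 1.22 without control 1 and 0.43 without control 2, where the remaining control is taken to vary as the other libraries do.

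Tbx5 (ENSMUSG00000018263, chromosome 5 from 119832668 to 119885219) had the lowest CPM of the tested genes. It had 4.13, 4.85, 6.82 and 4.34 CPM in Htr2b_cKO libraries, against 2.52 and 3.80 CPM in control libraries. The groups did not overlap, by a gap of 0.337 CPM. The log2 fold change was 0.70 (SE 0.33, edgeR unadjusted p = 0.0672, adjusted p = 0.562), with 0.41 without control 1. The log2 ratio of Tbx20 to Tbx5 within a library was 3.64 ± 0.35 in Htr2b_cKO and 3.52 ± 0.98 in control libraries, a difference smaller than either SD (0.12, exact permutation p = 1.00, two-sided).

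HAND2 and TWIST1 are basic helix-loop-helix proteins that pair with one another and with the E proteins; HAND2 is needed for the right ventricle and TWIST1 acts in mesenchyme and in epithelial to mesenchymal transition. Hand2 (ENSMUSG00000038193, chromosome 8 from 57320983 to 57324633) had 14.6, 8.65, 13.9 and 11.9 CPM in Htr2b_cKO libraries, against 12.7 and 9.15 CPM in control libraries. The lowest library was Htr2b_cKO 2 and the highest Htr2b_cKO 1, so the control values lay inside the Htr2b_cKO range. This gave a log2 fold change of 0.16 (SE 0.25, edgeR adjusted p = 0.872), or -0.05 without control 2. Twist1 (ENSMUSG00000035799, chromosome 12 from 33957671 to 33959829) had 48.9, 47.1, 41.6 and 50.9 CPM in Htr2b_cKO libraries, against 48.3 and 59.1 CPM in control libraries. It was the steadiest of the genes and the only tested one with a log2 fold change below 0, at -0.19 (SE 0.15, edgeR adjusted p = 0.705), and it was at 0.05 after correction for GC content and length. The log2 ratio of Hand2 to Twist1 was -1.96 ± 0.38 in Htr2b_cKO and -2.31 ± 0.54 in control libraries (difference 0.34, exact permutation p = 0.467, two-sided).

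The MEF2 proteins are MADS-box factors of muscle, neurons and other cells that respond to calcium and stress kinases, with class II histone deacetylases as their repressors. Mef2a (ENSMUSG00000030557, chromosome 7 from 67231163 to 67372858) had 81.6, 71.3, 82.3 and 68.1 CPM in Htr2b_cKO libraries, against 44.6 and 67.8 CPM in control libraries. The 4 Htr2b_cKO values were close together and control 1 stood apart below them, while control 2 was 0.231 CPM under the lowest Htr2b_cKO library. With size factors of DESeq2 in place of TMM the groups overlapped. Mef2a differed by a log2 fold change of 0.43 (SE 0.19, edgeR unadjusted p = 0.0479, adjusted p = 0.520), with 0.16 without control 1 and 0.77 without control 2.

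Mef2c (ENSMUSG00000005583, chromosome 13 from 83504034 to 83667080) had 16.5, 13.3, 22.4 and 11.9 CPM in Htr2b_cKO libraries, against 9.94 and 9.36 CPM in control libraries. The controls were nearly equal, and the gap to the lowest Htr2b_cKO library, 1.91 CPM, was the widest of the 4 genes without overlap. The means were 16.0 ± 4.66 CPM in Htr2b_cKO and 9.65 ± 0.407 CPM in control. The log2 fold change was 0.73 (SE 0.27, edgeR unadjusted p = 0.0265, adjusted p = 0.462), between 0.53 and 0.85 when any 1 library was left out. The log2 ratio of Mef2a to Mef2c was 2.28 ± 0.28 in Htr2b_cKO and 2.51 ± 0.49 in control libraries (difference -0.23, exact permutation p = 0.533, two-sided). After adjustment over the 4 paralog ratios every p was 1.00, and the smallest p that 15 splits allow is 0.0667, so this test could not have passed.

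Nkx2-5 and Prrx1 both carry homeodomains. Nkx2-5 (ENSMUSG00000015579, chromosome 17 from 26838664 to 26845009), the early marker of the heart muscle lineage, had 0, 2, 8 and 3 counts in Htr2b_cKO libraries, against 1 and 3 counts in control libraries. The limit that a 0 allows is 3 counts, or 0.0781 to 0.108 CPM depending on the library, and it covers counting error only. It was too low for the test, and a difference was not detectable at this depth. Prrx1 (ENSMUSG00000026586, chromosome 1 from 163245119 to 163313710), a factor of limb and connective tissue mesenchyme, had 270, 259, 160 and 267 CPM in Htr2b_cKO libraries, against 163 and 233 CPM in control libraries. Htr2b_cKO 3 was as low as control 1, and the other 3 Htr2b_cKO libraries were above both controls. A log2 fold change of 0.27 resulted (SE 0.25, edgeR adjusted p = 0.754). It was 0.43 without Htr2b_cKO 3 (unadjusted p = 0.0363), 0.03 without control 1 and 0.56 without control 2.

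**Figure D2:**
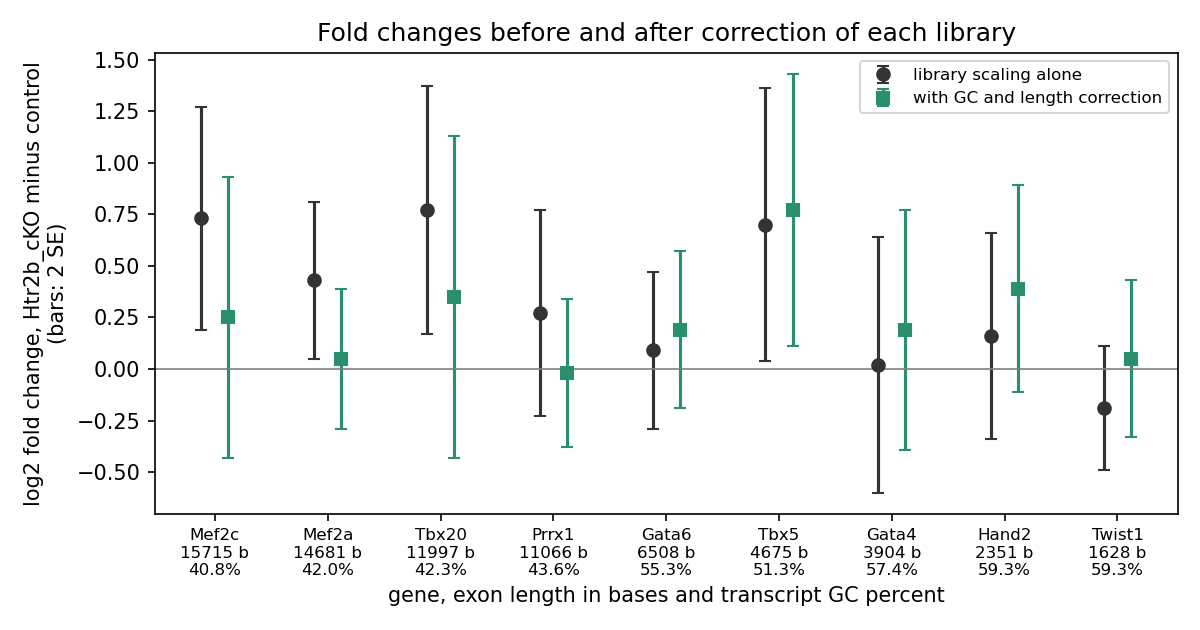
Log2 fold change of each tested gene, Htr2b_cKO over control, from the edgeR fit (black circles) and after correction for GC content and exon length (green squares), with bars of 2 SE either side; genes run from the longest to the shortest exonic sequence. Mef2a moves to 0.05 and Mef2c to 0.25 with the correction, while Tbx5 is at 0.77.

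Transcript length and base composition moved with these differences. Mef2c, Mef2a, Tbx20 and Prrx1 have the longest exonic sequence of the 10 genes, at 15715, 14681, 11997 and 11066 bases, and the lowest GC content, at 40.8%, 42.0%, 42.3% and 43.6%. The medians over tested genes were 4156 bases and 49.8%. All 4 fall in the longest 20% of tested genes, where the median log2 fold change was 0.17, and in the 20% lowest in GC, where it was 0.32 and 82.4% of genes were above 0. In the 20% highest in GC it was -0.15. After each library was corrected for both properties the log2 fold change was 0.35 for Tbx20 (SE 0.39), 0.05 for Mef2a (SE 0.17), 0.25 for Mef2c (SE 0.34) and -0.02 for Prrx1 (SE 0.18). Tbx5, with 4675 exonic bases and 51.3% GC, was at 0.77 (SE 0.33, edgeR unadjusted p = 0.0492, adjusted p = 0.856), the only 1 of the 9 at an unadjusted p under 0.05 in that fit, where 2.62% of genes were higher at that level. Gata4 was then at 0.19, Gata6 at 0.19 and Hand2 at 0.39. Of the 9 genes, 8 were above 0 and 1 below in that fit, with a median of 0.19, against 0.27 without the correction. Over all tested genes the corrected median was 0.01.

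Per kilobase of exon, the mesenchymal factors and Gata6 led. Twist1 averaged 30.3 CPM per kb over the 6 libraries (range 25.6 to 36.3), Gata6 20.7 (16.9 to 23.6) and Prrx1 20.3 (14.4 to 24.4). The range of Twist1 did not overlap that of Gata6, while Gata6 exceeded Prrx1 in 3 of 6 libraries, so those neighbours do not differ beyond their spread. Gata4 followed at 7.99 CPM per kb (5.81 to 11.8), below Prrx1 without overlap and above Hand2 in 6 of 6 libraries, though their ranges overlap. Next came Hand2 at 5.03, Mef2a at 4.72 and Tbx20 at 4.54 CPM per kb, with overlapping ranges. Tbx5 at 0.943 and Mef2c at 0.884 CPM per kb were below these without overlap and overlapped each other, and Nkx2-5 was last at 0.0509 CPM per kb (0 to 0.141). With the longest transcript as the length the order changed to Gata6 at 35.6, Prrx1 at 34.5, Twist1 at 30.3 and Mef2a at 12.5 CPM per kb. The first measure counts the exons of every annotated transcript.

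The genes varied unequally between libraries, whatever the genotype. The SD of log2(CPM + 0.5) over the 6 libraries was 0.554 for Tbx20, 0.457 for Mef2c, 0.416 for Tbx5 and 0.397 for Gata4, against 0.163 for Twist1, 0.223 for Gata6 and a median of 0.278 over tested genes. Each gene's log2(CPM + 0.5) was then centred on its mean over the libraries. Htr2b_cKO 3 was the highest library for 5 of the 9 genes, which exceeded the gene's mean by 0.73 for Mef2c, 0.64 for Tbx20, 0.63 for Tbx5, 0.60 for Gata4 and 0.27 for Mef2a. The same library was lowest for 3 genes, Prrx1 at -0.46, Gata6 at -0.28 and Twist1 at -0.24. It is the library with the most macrophage marker RNA and the least fibroblast marker RNA. The part of the fibroblast markers in these values was not tested, and the fold changes with macrophage markers as a covariate stand beside the values of those markers. Without Htr2b_cKO 3 the log2 fold change was 0.64 for Tbx20, 0.53 for Tbx5, 0.53 for Mef2c and -0.22 for Gata4. The controls parted too. In control 1, Gata4 was at 0.29 and Tbx5 at -0.65, and in control 2, Tbx20 was at -0.91 and Mef2c at -0.48.

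**Figure D3:**
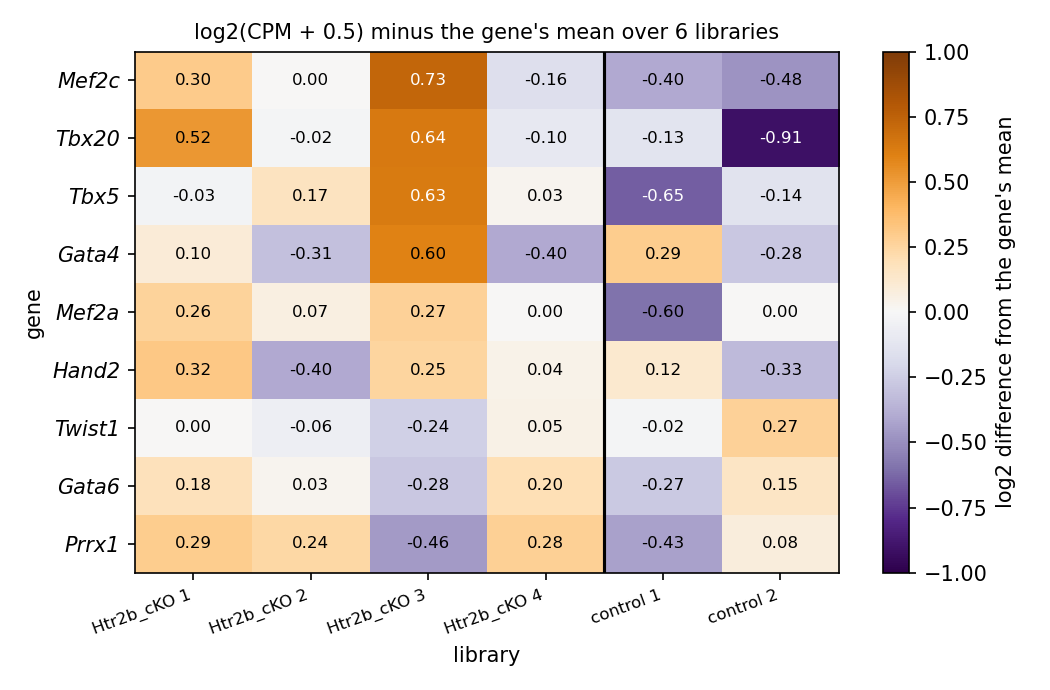
Log2(CPM + 0.5) of the 9 tested genes in each library minus the gene's mean over the 6 libraries, Htr2b_cKO libraries left and control libraries right; colour and printed number give the difference. Htr2b_cKO 3 is above the mean for Gata4, Tbx20, Tbx5, Mef2a and Mef2c and below it for Gata6, Twist1 and Prrx1.

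The root mean square difference of centred log2 profiles over the 6 libraries measured likeness as a description. Among the 9 genes, Gata6 was nearest to Prrx1, at 0.143, and Tbx20 to Mef2c, at 0.231. Over all tested genes with a mean of at least 10 CPM, the nearest to Tbx20 were the mitochondrial genes mt-Nd4 at 0.0820 and mt-Nd5 at 0.0894. The nearest to Gata4 were Islr at 0.05 and mt-Co2 at 0.0741, and those to Mef2c were Nxt2 at 0.114 and Cped1 at 0.121. Mtmr6 at 0.0359 and Ercc6 at 0.0492 were nearest to Mef2a, Csnk1a1 at 0.0322 and Ubtd2 at 0.0343 to Gata6, and Pdzrn3 at 0.0622 and Pias2 at 0.0649 to Prrx1. For Tbx5 they were Rnf13 at 0.0645 and Ugp2 at 0.112, for Hand2 Ctns at 0.0937 and E4f1 at 0.0957, and for Twist1 Atg2a at 0.0365 and Creld1 at 0.0545. The median difference from all tested genes was 0.239 to 0.552, depending on the gene.

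In the authors' normalized values the divisor of an estimated count is specific to gene and library, and for Mef2c this factor was unusually uneven. Its log2 factor, relative to the library's mean, was -1.02, 0.52, -0.36 and 0.21 in Htr2b_cKO libraries, against 0.29 and 0.36 in control libraries. The SD of 0.58 exceeded that of 99.0% of the 11933 genes averaging at least 100 counts, whose median was 0.0666. The authors' normalized signal of Mef2c was therefore 1088, 297, 919 and 328 in Htr2b_cKO, against 259 and 237 in control libraries, so that Htr2b_cKO 1 and 3 stand far above the other 4 libraries. With these factors as offsets the log2 fold change of Mef2c was 1.35, the highest of its alternatives. Tbx5 (SD 0.35, above 94.8% of genes) and Gata4 (SD 0.28, above 91.2%) were also uneven, with Gata4 at -0.56 in Htr2b_cKO 1. The authors' signal of Tbx5 was 186, 129, 173 and 183 in Htr2b_cKO, against 69.4 and 119 in control libraries, without overlap. For Hand2 and Twist1 the SD was 0.03. What enters the factor is not given in the sources used here.

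**Figure D4:**
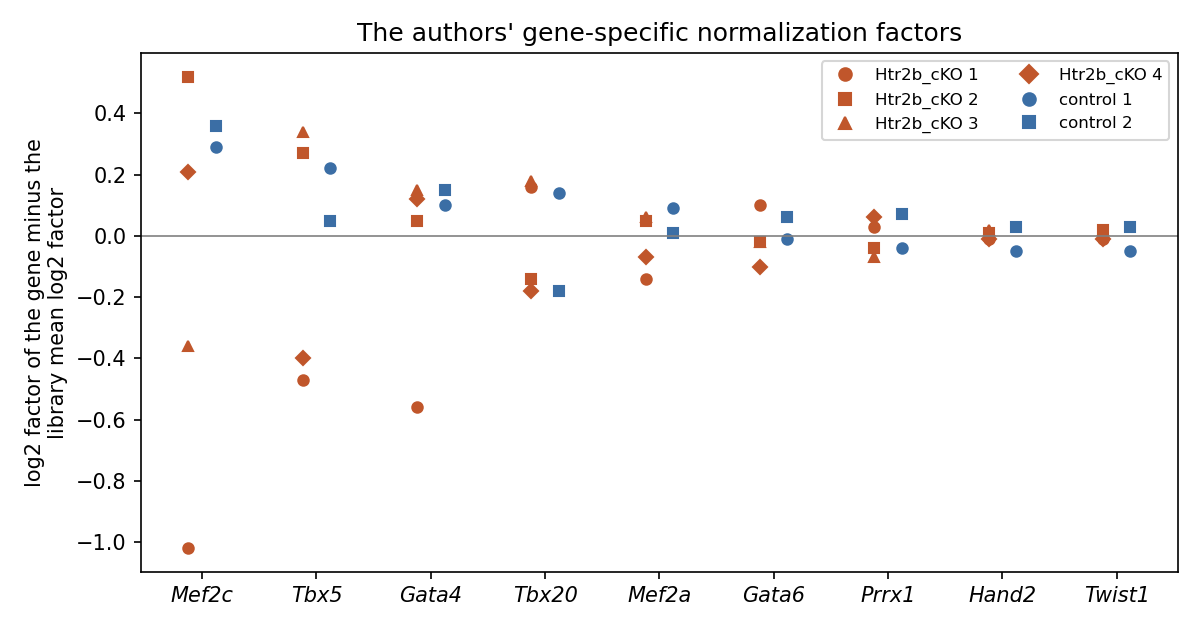
Log2 of the authors' factor for each of the 9 genes in each library, minus the mean log2 factor of that library, Htr2b_cKO libraries left of control libraries. Mef2c spreads from -1.02 to 0.52, while Hand2 and Twist1 stay within 0.05 of 0.

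Transcripts on the other strand adjoin several of these genes. Hand2os1 (chromosome 8 from 57281117 to 57324233), a long noncoding RNA divergent from Hand2 that overlaps it over 3251 bases, had 3.10, 1.63, 2.93 and 1.69 CPM in Htr2b_cKO libraries, against 1.04 and 1.45 CPM in control libraries. All 4 Htr2b_cKO libraries were above both controls (log2 fold change 0.92, SE 0.46, edgeR adjusted p = 0.573). 1010001N08Rik, which overlaps Gata6 over 504 bases on the other strand, had 13.3, 7.44, 6.85 and 7.93 CPM in Htr2b_cKO, against 4.97 and 7.95 CPM in control libraries (edgeR adjusted p = 0.687). Lysmd4, which overlaps Mef2a over 76168 bases, had 6.81 ± 0.950 CPM in Htr2b_cKO and 7.81 ± 0.00266 CPM in control libraries. The kit keeps strand, but whether the counting used it is not stated, so reads of overlapping partners may have been shared. Of 10 annotated genes within 5 kb of a member, 5 have a row in the table and the others were not analysed here; Gm37644 and Gm20471, within Prrx1, were near or at 0 CPM.

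Other transcription factors of heart development did not pass either. Of 37 listed genes, 30 could be tested and edgeR called 0 (17 above 0, 13 below, median log2 fold change 0.11). The groups did not overlap for 2 on the higher side and 1 on the lower side, against 10.6% and 8.98% of tested genes. After the GC and length correction 2 were higher at an unadjusted p under 0.05, against 2.62% of tested genes, and 0 lower. Without it 1 was higher and 0 lower at that level, against 6.60% and 2.99%. That gene, Foxc1, a forkhead factor of heart and eye mesenchyme, had 19.2, 16.1, 26.3 and 14.7 CPM in Htr2b_cKO, against 10.4 and 7.88 CPM in control libraries. Its groups did not overlap, and its log2 fold change of 1.05 (SE 0.27, edgeR adjusted p = 0.346) was 1.17 after the GC and length correction. Tbx18, a T-box factor of epicardium and mural cells, had 28.8 ± 3.39 CPM in Htr2b_cKO and 22.9 ± 4.00 CPM in control libraries. The Iroquois factor Irx3 had 2.06 ± 0.903 CPM in Htr2b_cKO and 3.64 ± 1.26 CPM in control, and Irx5 had 0.549 ± 0.188 CPM in Htr2b_cKO and 0.213 ± 0.00621 CPM in control. The values of Irx5 rest on few counts, 22, 19, 17 and 11 in Htr2b_cKO, against 8 and 6 in control libraries. Sox4, among the genes of the list with the highest CPM, had 120 ± 16.9 CPM in Htr2b_cKO and 111 ± 12.1 CPM in control. Tbx1, Hand1, Mef2b, Nkx2-3, Nkx2-6 and Irx4 were among those too low to test.

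Mesenchymal transcription factors had values in both directions. Of 30 listed genes 28 were tested and edgeR called 0. In the same test 5 were higher at an unadjusted p under 0.05, against 6.60% of tested genes, and 2 lower, against 2.99%. Groups without overlap were found for 7 on the higher side, against 10.6% of tested genes, and 3 on the lower side, against 8.98%. Fold changes exceeded 0 for 18 genes, and their median on the log2 scale was 0.18, or 0.10 after the GC and length correction. With that correction 1 was higher at an unadjusted p under 0.05, against 2.62% of tested genes, and 0 lower. Ebf2, a helix-loop-helix factor of mesenchymal and fat precursors, had 27.9, 45.1, 44.0 and 32.5 CPM in Htr2b_cKO, against 17.8 and 21.8 CPM in control libraries. All 4 were above both controls (log2 fold change 0.92, SE 0.23, edgeR adjusted p = 0.337; 0.75 after the correction). Zeb1, a repressor of epithelial genes, had 99.3, 82.5, 120 and 76.9 CPM in Htr2b_cKO, against 63.3 and 68.6 CPM in control libraries. Its log2 fold change of 0.52 (edgeR adjusted p = 0.461) was 0.35 after the correction. The odd-skipped factor Osr1 went the other way, with 75.8, 68.1, 70.2 and 110 CPM in Htr2b_cKO, against 123 and 112 CPM in control libraries. Its log2 fold change of -0.54 (SE 0.20, edgeR adjusted p = 0.468) was -0.31 after the correction. Foxp2 had 15.6 ± 3.88 CPM in Htr2b_cKO and 9.92 ± 0.943 CPM in control libraries, and its log2 fold change of 0.65 was 0.25 after the correction. The highest CPM were those of Klf4, at 700 ± 155 CPM in Htr2b_cKO and 507 ± 154 CPM in control, and of Nfic, at 252 ± 8.51 CPM in Htr2b_cKO and 264 ± 3.07 CPM in control.

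All 28 listed genes of cofactors and dimer partners of these factors were tested, edgeR called 0, and the log2 fold changes were divided into 14 above 0 and 14 below, their median -0.01. After the GC and length correction 18 were above 0 and 10 below. Without the correction the groups did not overlap for 1 gene on the higher side and 5 on the lower side. Over all tested genes these shares were 10.6% and 8.98%. At an unadjusted p under 0.05 there were 0 higher, against 6.60% of tested genes, and 1 lower, against 2.99%. This was Tead4, a DNA-binding partner of YAP, with 0, 0.181, 0.242 and 0.0891 CPM in Htr2b_cKO, against 1.17 and 0.325 CPM in control libraries (log2 fold change -2.56, SE 0.83, edgeR adjusted p = 0.401), a level of few counts. Its relatives Tead3, at 30.8 ± 3.22 CPM in Htr2b_cKO and 38.5 ± 2.61 CPM in control, and Tead2, at 26.9 ± 2.21 CPM in Htr2b_cKO and 33.3 ± 0.715 CPM in control, had log2 fold changes of -0.32 and -0.31. After the correction these were -0.20 and -0.16. The acetyltransferase gene Kat2b had 48.3 ± 4.89 CPM in Htr2b_cKO and 35.9 ± 11.8 CPM in control. Id3, an inhibitor of helix-loop-helix factors, had 203 ± 38.0 CPM in Htr2b_cKO and 227 ± 27.1 CPM in control. Tcf3, an E protein that pairs with HAND2 and TWIST1, had 88.7 ± 6.46 CPM in Htr2b_cKO and 96.9 ± 2.26 CPM in control.

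Markers of other cell types are given because some of those cells also express these genes, and their part in the values above was not tested except where stated. The 20 cardiomyocyte markers summed to 37.8, 24.2, 48.1 and 21.4 CPM in Htr2b_cKO, against 71.1 and 19.2 CPM in control libraries, with Myh6 at a mean of 6.17 CPM and Tnnt2 at 5.95 CPM, and Nppb and Cox6a2 at 0 in at least 1 library. Endothelial markers, of a cell type that expresses Mef2a and Mef2c, summed to 97.5 to 170 CPM in Htr2b_cKO and to 355 and 88.9 CPM in control libraries, led by Tek at 41.1 and Pecam1 at 23.6 CPM. Epicardial and mesothelial markers, of cells that also express several of the 10 genes, summed to 275 to 373 CPM in Htr2b_cKO and to 366 and 451 CPM in control libraries, with Wt1 at 98.4 and Upk3b at 66.8 CPM. Mural markers summed to 155 to 206 CPM in Htr2b_cKO and to 283 and 153 CPM in control libraries, led by Des at 87.6 and Notch3 at 30.1 CPM.

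Macrophage markers varied most, at 783, 2060, 3992 and 324 CPM in Htr2b_cKO, against 2395 and 746 CPM in control libraries, with Lyz2 at 982 and C1qb at 213 CPM. With their level as a covariate the log2 fold changes were 0.86 for Tbx20, 0.78 for Mef2c, 0.73 for Tbx5, 0.43 for Mef2a and 0.10 for Gata4, against 0.77, 0.73, 0.70, 0.43 and 0.02 without it. Lymphocyte markers, with Cd79a at 2.71 and Cd79b at 1.83 CPM, neutrophil markers, with S100a9 at 23.3 and S100a8 at 14.2 CPM, and Schwann cell markers, with Mbp at 26.0 and S100b at 0.944 CPM, summed to at most 97.8 CPM in any library. The 12 fibroblast markers, led by Col3a1 at 46454 and Col1a1 at 28771 CPM, summed to 80514 to 133860 CPM in Htr2b_cKO and to 94272 and 119244 CPM in control libraries. In none of the 9 marker lists was a gene called by edgeR, and none of the listed markers with a row was at 0 in all libraries.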

How the data were processed

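Total RNA of 6 libraries was made into directional libraries, per the labels' protocols. The authors deposited estimated counts per Ensembl gene, as whole numbers without normalization. They also deposited a normalized signal, for which the divisor of a count depends on both the gene and the library. DRAGEN, DESeq2 and build mm10 are named, without roles or versions, per the submitters' processing notes. Annotation and strand setting of the counting are not stated in the labels or headers. Symbols, coordinates, exon length and GC content came from GENCODE M21, which held all 42256 gene identifiers.

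Estimated counts were tested with edgeR 4.0.16 in R 4.3.3 (TMM, filterByExpr, robust quasi-likelihood F test, two-sided), with genotype as the only term and Benjamini-Hochberg adjustment over 15840 genes. Genes with an adjusted p under 0.05 are said to be called, and every log2 fold change is Htr2b_cKO over control. DESeq2 1.42.0, limma 3.58.1 (voom) and lowess offsets on GC content and length (span 0.3) were alternatives, and the fit was tested on simulated data. Paralog ratios used log2(counts + 0.5) and an exact permutation test. A check for libraries deposited more than once found none among the 15 pairs (chi-square per degree of freedom 61.4 to 262). Library totals ran from 28533427 to 37392496 counts.

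The 10 genes, the 3 related lists and the 9 marker lists were chosen with earlier results of these data known. Named genes were the 10; annotated genes within 5 kb of them; from each related list the 4 with the smallest p and the 2 most abundant; the 2 most abundant of each marker list; and the 2 nearest profiles of each tested gene. Htr2b, Postn and Pdgfra were checks; Postn had 1542 ± 561 CPM in Htr2b_cKO and 1947 ± 512 CPM in control libraries. The epicardial marker Muc16 was not analysed here. One gene that the rule names is not reported here. Promoters came from RefSeq.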

Additional observations from a re-analysis of the deposited data

Results flagged for a closer look

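Prrx1 had 1 library far from the others of its group. In Htr2b_cKO it stood at 270, 259, 160 and 267 CPM, against 163 and 233 CPM in control libraries, and the gap between Htr2b_cKO 3 and its nearest neighbour was 0.904 of the range of the group, above the critical value of Dixon's test for 4 samples. Chance flags about 1 in 20 groups, and 14 quantities were examined in this way, the 10 genes and the 4 paralog ratios. The same library had the lowest sum of fibroblast markers.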

How the results depend on the processing

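Under 15 alternatives each, 127 of the 135 fold changes of the 9 genes kept their direction and 0 were called; the lowest adjusted p was 0.225, for Mef2c with macrophage markers as a covariate. The rest are listed with the range when each library was left out in turn, with nothing else changed. Over all genes 3 were called in the edgeR fit, 105 with DESeq2, 10 with the macrophage covariate, 5 with no filter, 5 without Htr2b_cKO 3 and 4, and 1 to 8 with a library left out. At an unadjusted p under 0.05, higher genes numbered 415 with the GC and length correction (287 to 1344 with a library left out), and lower genes 254 to 617. Of the 9 genes, 1 was higher at that level with the correction and 1 without Htr2b_cKO 3 and 4 (1 to 3 with a library left out). The log2 fold change of Gata4 was -0.03 with limma voom and -0.13 without Htr2b_cKO 3 and 4 (-0.23 to 0.33), that of Gata6 ranged from -0.10 to 0.33 and that of Hand2 from -0.05 to 0.42. With the correction Twist1 was at 0.05 and Prrx1 at -0.02. The median of the mesenchymal list was 0.10 and that of partners 0.04 with the correction. Partners were at 0.18 with the authors' factors, and at -0.03 to 0.04 with a library left out and nothing else changed. Non-overlapping genes numbered 3 on the higher side with DESeq2 size factors, and 0 to 1 on the lower side (Twist1 without control 1). In the authors' table the ratio of Gata4 to Gata6 differed by 0.05 and that of Tbx20 to Tbx5 by -0.10; leaving out a library gave -0.61 to 0.39, -0.58 to 0.81, -0.57 to 0.11 for Mef2a to Mef2c and -0.04 to 0.72 for Hand2 to Twist1. By level, 1 gene kept its rank per kb of the longest transcript and 2 without regard to length. The causes were not tested. Depth limits Nkx2-5, Tead4, Irx5 and Htr2b. The labels give no pairing of libraries between genotypes, so none was used. Replicate numbers are not given either, and those used here follow the order of the samples in the series.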
